A study of Homo sapiens with 18 samples.

Results

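The 7SK small nuclear RNA, its binding proteins and the kinase complex that they hold were followed through RNA libraries of extracellular vesicles (EVs) and of the cells that released them. The 8 genes, of 57865 in the whole set, were RN7SK, which encodes the 7SK RNA, MEPCE and LARP7, HEXIM1 and HEXIM2, and CDK9, CCNT1 and CCNT2. The set was chosen by the TPM of RN7SK in ATG7-/- EVs against wild-type EVs, where it fell, so the values of that comparison are given as a description. All libraries came from HEK293T, an established human embryonic kidney line, kept without serum for 24 h. The groups were EVs released by ATG7-/- cells (clone F2), by ATG12-/- cells (clone D9) and by wild-type cells, and the 3 matching groups of cells, with 3 libraries each. The title of every library names it as large RNA, without giving a size, so levels of short RNAs are to be read with that limit. ATG7 is the activating enzyme and ATG12 a ubiquitin-like partner in the conjugation of LC3 to membrane lipid, and the study's title asks how this machinery loads RNA-binding proteins into EVs. Each knockout is a single clone, so an effect of the lost gene and one of the clone cannot be told apart.

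P-TEFb is the kinase that releases paused RNA polymerase II into productive elongation, and its core is CDK9 with cyclin T1 or T2. In the nucleus a part of P-TEFb is kept inactive on the 7SK RNA. HEXIM proteins bind 7SK and block the kinase, LARP7 holds the 3′ end of the RNA, and MEPCE caps its 5′ end. RNA polymerase III transcribes 7SK, and the human genome carries many pseudogene copies of it.

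RN7SK has 1 annotated transcript of 328 nt, on the plus strand of chromosome 6 at chr6:52995621-52995948 (GRCh38). The table held 291 RN7SK pseudogenes, of which 112 were above 0 in any library. The copies matter here because reads of 50 bases were assigned among them. Of the 279 windows of 50 bases in RN7SK, 215 were also found in another annotated gene elsewhere, and the 26 bases from 303 to 328 lay in no such window. A second annotated entry over the same bases, RF00100, was listed at 0 in all EV libraries and at up to 50.4 TPM in cells. RN7SKP80 lies in introns of SERHL2 and RRP7BP, at chr22:42565048-42565330 on the minus strand, and held 79 of the RN7SK windows. Its transcript was 96.3% identical to RN7SK bases 1 to 269, with 9 mismatches and 1 base missing. RN7SKP255, at chr14:89712511-89712823 on the plus strand, held 62 windows and was 98.3% identical to bases 1 to 239, with 4 mismatches. The sequences are from GENCODE 29 and are printed 5′ to 3′ up to 300 bases, to show how close the copies are to the RNA that chose the genes. Capitals in RN7SK mark the 9 bases that are substituted in RN7SKP80. The base missing from RN7SKP80 and the RN7SK bases after 269, which did not align with it, are in small letters. Capitals in each copy mark bases that are mismatched to RN7SK or outside the part that aligned.
RN7SK: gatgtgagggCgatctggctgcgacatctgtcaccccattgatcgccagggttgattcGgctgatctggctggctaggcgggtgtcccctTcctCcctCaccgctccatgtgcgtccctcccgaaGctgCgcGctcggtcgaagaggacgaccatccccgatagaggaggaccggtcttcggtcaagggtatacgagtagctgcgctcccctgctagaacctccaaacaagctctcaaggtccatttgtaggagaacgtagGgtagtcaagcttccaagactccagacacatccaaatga
RN7SKP80: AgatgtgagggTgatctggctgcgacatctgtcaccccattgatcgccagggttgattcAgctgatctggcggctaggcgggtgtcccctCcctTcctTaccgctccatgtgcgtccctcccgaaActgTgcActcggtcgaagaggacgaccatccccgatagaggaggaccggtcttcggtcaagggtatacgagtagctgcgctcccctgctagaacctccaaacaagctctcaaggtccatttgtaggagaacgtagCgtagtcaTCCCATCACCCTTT
RN7SKP255: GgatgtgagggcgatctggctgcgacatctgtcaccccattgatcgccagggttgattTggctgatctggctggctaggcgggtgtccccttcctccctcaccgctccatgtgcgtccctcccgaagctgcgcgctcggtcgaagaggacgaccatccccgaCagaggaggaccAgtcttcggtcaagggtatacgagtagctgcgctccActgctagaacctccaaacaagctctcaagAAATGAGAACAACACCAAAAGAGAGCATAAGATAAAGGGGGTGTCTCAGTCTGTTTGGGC
With the RN7SK base first, the position counted from 1 at its 5′ end and the base of the copy last, the differences of RN7SKP80 were C11T, G59A, T91C, C95T, C99T, G126A, C130T, G133A and G262C. Those of RN7SKP255 were C58T, T162C, G174A and C210A. No position was shared between the copies. Of the 234 windows of RN7SKP80, 154 were found in no other gene, and of the 264 windows of RN7SKP255, 186.

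Values are TPM, a length-scaled share of each library, as the authors deposited them, so an RNA can gain share because others lose it. RN7SK had 10110, 9968 and 8311 TPM in ATG7-/- EVs, and 17602, 23178 and 21202 TPM in wild-type EVs. All 3 knockout libraries lay below all 3 wild-type libraries. The means were 9463 ± 1000 TPM in ATG7-/- EVs and 20661 ± 2827 TPM in wild-type EVs (SD, n = 3 each), a log2 fold change of -1.03 (SE 0.13) after scaling of the libraries. In ATG12-/- EVs, which are set against the same wild-type libraries, RN7SK had 9968, 12037 and 10433 TPM. These also lay below every wild-type EV library, with a log2 fold change of -0.85 (SE 0.13) that did not pass limma's test (adjusted p = 0.068). In these bulk libraries, fewer vesicles or cells with an RNA and less of it in each cannot be told apart.

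**Figure D1:**
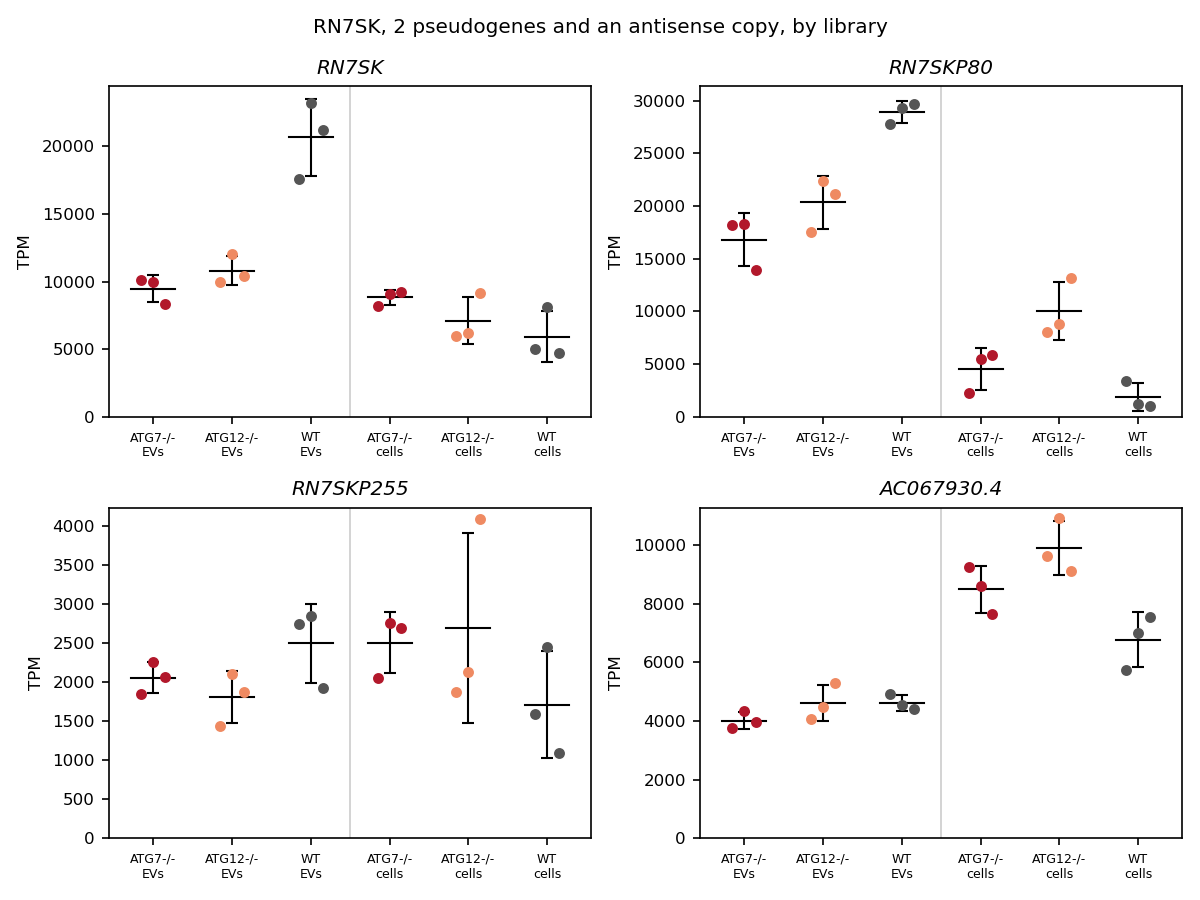
TPM (vertical axes, linear, from 0) of RN7SK, its pseudogenes RN7SKP80 and RN7SKP255 and the antisense copy AC067930.4 in each library (points), with group means (long bars) and SDs (whiskers, n = 3). In EVs the 6 knockout libraries of RN7SK lie between 8311 and 12037 TPM, below the 3 wild-type libraries at 17602 to 23178 TPM, and the EV groups of RN7SKP80 have the same order.

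In cells the RN7SK means of both knockouts were above that of wild type, and neither difference passed the test. ATG7-/- cells had 8170, 9102 and 9211 TPM, and wild-type cells 4998, 8113 and 4690 TPM. The groups did not overlap, by a margin that was small beside the range of the wild-type cells. The log2 fold change was 0.69 (SE 0.26) and did not pass limma's test (adjusted p = 0.296). ATG12-/- cells had 6006, 6202 and 9145 TPM and overlapped with wild-type cells (log2 fold change 0.31, SE 0.26, limma adjusted p = 0.612). The means of the cells were 8828 ± 572 TPM in ATG7-/-, 7118 ± 1758 TPM in ATG12-/- and 5934 ± 1894 TPM in wild type (SD, n = 3 each), so the lower RN7SK of knockout EVs stood beside cell means above that of wild type.

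RN7SK was the gene with the 10th highest mean in EVs and the 21st in cells. Its difference between EVs and cells is given for each genotype. In ATG7-/- the log2 difference of EVs minus cells was -0.13 (SE 0.20, limma adjusted p = 0.707). In ATG12-/- it was 0.48 (SE 0.20, adjusted p = 0.124), with the 3 EV libraries above the 3 cell libraries. In wild type it was 1.33 (SE 0.20, limma adjusted p = 3.53e-04), with no overlap. The ATG7-/- and wild-type values use the EV libraries on which the genes were chosen, and the difference between genotypes was not tested. Over the 3 genotypes RN7SK was higher in EVs (0.56, SE 0.11, limma adjusted p = 0.00124), while the median of all 24647 genes tested was -0.62. The RN7SK value over the 3 genotypes also uses those EV libraries, and it joins unlike groups, with a call in wild type only. With upper quartile scaling, which moved that median to -0.81, the RN7SK value was 0.17 (adjusted p = 0.295) and the ATG12-/- value turned to -0.19.

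RN7SKP80 was listed above RN7SK in all EV groups. It had 18182, 18286 and 13902 TPM in ATG7-/- EVs, 17547, 22358 and 21112 TPM in ATG12-/- EVs, against 27779, 29295 and 29673 TPM in wild-type EVs. Both knockouts lay below wild type without overlap, as they did for RN7SK. Neither comparison passed limma's test (ATG7-/- EVs -0.70, SE 0.12, adjusted p = 0.083; ATG12-/- EVs -0.44, SE 0.12, adjusted p = 0.355). In cells RN7SKP80 had 2228, 5457 and 5900 TPM in ATG7-/-, 8048, 8825 and 13195 TPM in ATG12-/-, and 3398, 1240 and 984 TPM in wild type. The ATG12-/- cells lay above every wild-type cell library, with a log2 fold change of 2.64 (SE 0.51, limma adjusted p = 0.104). The difference of EVs minus cells was 3.67 (SE 0.39, limma adjusted p = 1.79e-05) in wild type, 1.78 (adjusted p = 0.00933) in ATG7-/- and 0.91 (adjusted p = 0.143) in ATG12-/-. With upper quartile scaling the ATG12-/- value was 0.23 (limma adjusted p = 0.664).

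The next copy was far lower and moved less. RN7SKP255 averaged 2058 ± 201 TPM in ATG7-/- EVs, 1805 ± 335 TPM in ATG12-/- EVs and 2499 ± 506 TPM in wild-type EVs, with cells at 2502 ± 392, 2691 ± 1210 and 1711 ± 683 TPM in the same order of genotypes (SD, n = 3 each). It passed the test in no comparison of genotypes or of EVs with cells, although over 3 genotypes it was called lower in EVs with upper quartile scaling (-0.74) and without wild-type cell replicate 3 (-0.46), and in ATG12-/- with upper quartile scaling (-1.32, limma adjusted p = 0.00858). The 289 pseudogenes other than these held 642 ± 242 TPM together in EVs and 919 ± 173 TPM in cells (SD, n = 9 each). Of the 69 pseudogenes that passed the filter on low values in the comparison of EVs with cells over 3 genotypes, 4 were called higher and 18 lower, where 44.2% of all genes were called, 1888 higher and 8994 lower. Their median was -0.71, against -0.62 over all genes.

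The part of the summed RN7SK and pseudogene signal that was assigned to RN7SK itself was similar in the knockout EVs and larger in wild-type EVs. The RN7SK values that chose the genes enter this part and the sum, so both are given for EVs as a description. The part was 32.7%, 32.4% and 33.9% in ATG7-/- EVs, and 33.4%, 32.3% and 30.4% in ATG12-/- EVs, against 36.2%, 41.4% and 39.6% in wild-type EVs. For the cells it was 59.8%, 50.3% and 49.3% in ATG7-/-, 36.2%, 34.6% and 33.6% in ATG12-/-, and 45.4%, 63.4% and 59.7% in wild type. The ATG12-/- cells stood below both other cell groups and close to the EVs. The sum of RN7SK and its pseudogenes was 28735 ± 3650 TPM in ATG7-/- EVs, 33786 ± 3717 TPM in ATG12-/- EVs and 52746 ± 3787 TPM in wild-type EVs. In cells the sum was 16817 ± 2741 TPM in ATG7-/-, 20594 ± 5805 TPM in ATG12-/- and 10553 ± 2503 TPM in wild type (SD, n = 3 each). Fitted as 1 feature in place of RN7SK, the sum gave -0.79 in ATG7-/- EVs and -0.57 in ATG12-/- EVs, smaller differences than RN7SK alone, and 0.99 in ATG12-/- cells (limma adjusted p = 0.169), more than 3 times the value of RN7SK alone.

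**Figure D2:**
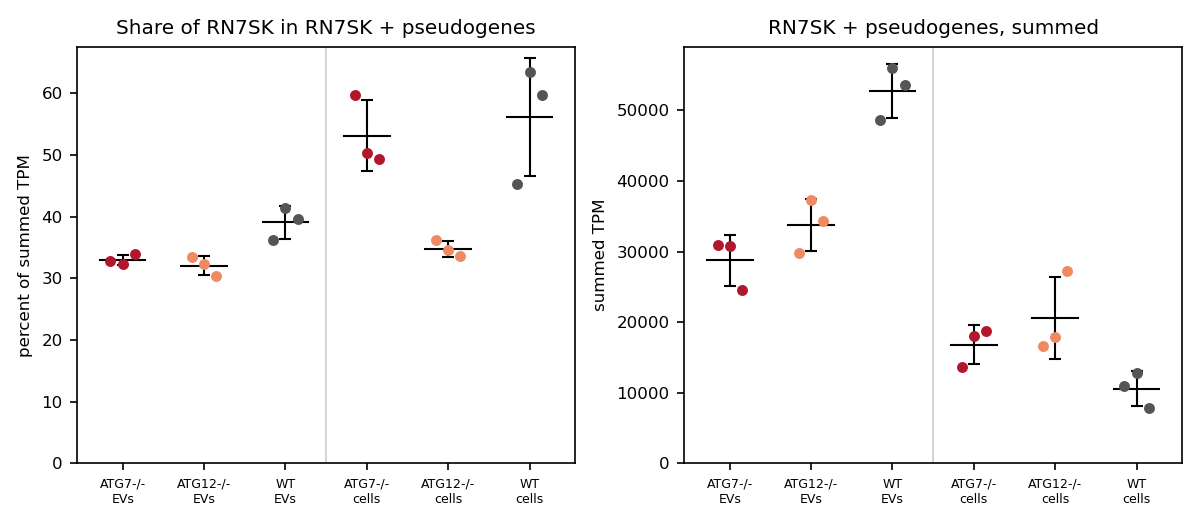
Left, percent of the summed TPM of RN7SK and its pseudogenes that was assigned to RN7SK; right, the sum in TPM (both axes from 0). Points are libraries, long bars means and whiskers SDs (n = 3); ATG12-/- cells lie at 33.6% to 36.2%, and the other cell libraries at 45.4% to 63.4%.

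A further copy of 7SK is annotated in antisense orientation. AC067930.4 is 498 nt long and, read in reverse, was 82.6% identical to RN7SK. It was the only gene with a reversed 50-base window of RN7SK. It had 4012 ± 298 TPM in ATG7-/- EVs, 4612 ± 612 TPM in ATG12-/- EVs and 4610 ± 265 TPM in wild-type EVs, and 8497 ± 805, 9894 ± 926 and 6772 ± 932 TPM in the cells of the same genotypes (SD, n = 3 each). It was lower in EVs in each genotype, by -1.20 over all 3 (SE 0.07, limma adjusted p = 1.70e-08), opposite to the direction of RN7SK and RN7SKP80. The strand setting behind the deposited values is not given in the sources used here. AC006064.4, annotated opposite GAPDH, had 11737 ± 610 TPM in EVs and 3488 ± 505 TPM in cells, while GAPDH itself had 568 ± 110 TPM in EVs and 84.7 ± 23.9 TPM in cells (SD, n = 9 each). If strands were exchanged in the quantification, the value of each gene here is that of its opposite strand, and this was not tested. No gene is annotated opposite RN7SK.

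The protein-coding genes of the particle were low, with means of 1.62 to 22.5 TPM in EVs and 1.43 to 10.5 TPM in cells. MEPCE (chr7:100428790-100434126, plus strand), the capping enzyme of 7SK, was the most abundant of the 7 in both. It had 14.4, 19.5 and 27.9 TPM in ATG7-/- EVs, 26.1, 16.0 and 34.7 TPM in ATG12-/- EVs, and 23.5, 23.5 and 16.7 TPM in wild-type EVs. These EV groups overlapped. Among the cell libraries, ATG7-/- had 5.06, 10.7 and 7.42 TPM, ATG12-/- 15.3, 15.6 and 18.8 TPM, and wild type 6.21, 6.28 and 9.43 TPM. ATG12-/- cells lay above both other cell groups, with a log2 fold change of 1.12 over wild type (SE 0.30) that did not pass limma's test (adjusted p = 0.177). Over the 3 genotypes MEPCE was higher in EVs, at 22.5 ± 6.56 TPM against 10.5 ± 4.93 TPM in cells (SD, n = 9 each; log2 difference 0.83, SE 0.22, limma adjusted p = 0.00698). With upper quartile scaling the call was lost (0.46, adjusted p = 0.0945). In MEPCE 96.6% of the signal lay in 1 protein-coding transcript of 2261 nt.

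LARP7 (chr4:112636964-112657592, plus strand), which binds the 3′ end of 7SK, was the lowest of the 7 in both fractions. It was listed at 0 in 6 of 9 EV libraries and in 2 of 9 cell libraries. The EV libraries above 0 had 4.82 TPM in ATG7-/-, 1.05 TPM in ATG12-/- and 8.73 TPM in wild type. ATG7-/- cells had 1.29, 0 and 2.67 TPM, ATG12-/- cells 2.04, 2.13 and 3.68 TPM, and wild-type cells 0, 0.358 and 0.660 TPM. The ATG12-/- cells lay above all wild-type cells (log2 fold change 1.44, SE 0.49, limma adjusted p = 0.242). Of the LARP7 signal, 37.0% lay in a protein-coding transcript of 1047 nt and 31.4% in one annotated for nonsense-mediated decay. Each was above 0 in 3 libraries. The longer protein-coding transcripts of 2164, 2286 and 2332 nt were at 0 in every library. The noncoding AC106864.1, opposite 7.40% of the exonic bases of LARP7, had 346 ± 202 TPM in EVs and 315 ± 71.8 TPM in cells (SD, n = 9 each).

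HEXIM1 (chr17:45148502-45152101, plus strand), the main inhibitory partner of P-TEFb on 7SK, was the only member called lower in EVs over the 3 genotypes. It had 2.41, 1.58 and 1.18 TPM in ATG7-/- EVs, 1.64, 3.14 and 6.02 TPM in ATG12-/- EVs, and 4.26, 3.19 and 1.02 TPM in wild-type EVs. ATG7-/- cells had 5.04, 5.31 and 4.90 TPM, ATG12-/- cells 4.47, 4.38 and 4.98 TPM, and wild-type cells 7.88, 6.73 and 6.63 TPM. The log2 difference of EVs minus cells over 3 genotypes was -1.15 (SE 0.24, limma adjusted p = 0.00174), beyond the median of all genes at -0.62. Within genotypes it was -1.59 in wild type (limma adjusted p = 0.0140), -1.36 in ATG7-/- (adjusted p = 0.0511) and -0.51 in ATG12-/- (adjusted p = 0.463). The ATG7-/- value was called with upper quartile scaling (-1.54, limma adjusted p = 0.0201) and when libraries were weighted and no trend was fitted (-1.35, adjusted p = 0.0126). The wild-type call was lost on TPM as deposited (adjusted p = 0.0712) and without wild-type EV replicate 3 (-1.19, adjusted p = 0.0576). The 6 knockout cell libraries, at 4.38 to 5.31 TPM, lay below the 3 wild-type ones, at 6.63 to 7.88 TPM. The log2 fold changes, -0.35 in ATG7-/- cells (SE 0.21, limma adjusted p = 0.469) and -0.50 in ATG12-/- cells (SE 0.21, adjusted p = 0.316), did not pass. HEXIM1 has 1 transcript, and AC138150.1 lies opposite 14.4% of its exonic bases, at 17.5 ± 16.8 TPM in EVs and 31.4 ± 14.6 TPM in cells (SD, n = 9 each).

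HEXIM2 (chr17:45160700-45170040, plus strand), its paralog with the same inhibitory role, varied too widely for any order. Its lowest, median and highest values were 0, 6.36 and 31.2 TPM in the 9 EV libraries and 1.61, 5.78 and 12.7 TPM in the 9 cell libraries. Its fold changes had standard errors of 0.61 to 1.34 log2 units and none passed the test. AC138150.2, opposite 50.3% of its exonic bases, had 4.91 ± 3.19 TPM in EVs and 3.21 ± 1.64 TPM in cells (SD, n = 9 each).

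**Figure D3:**
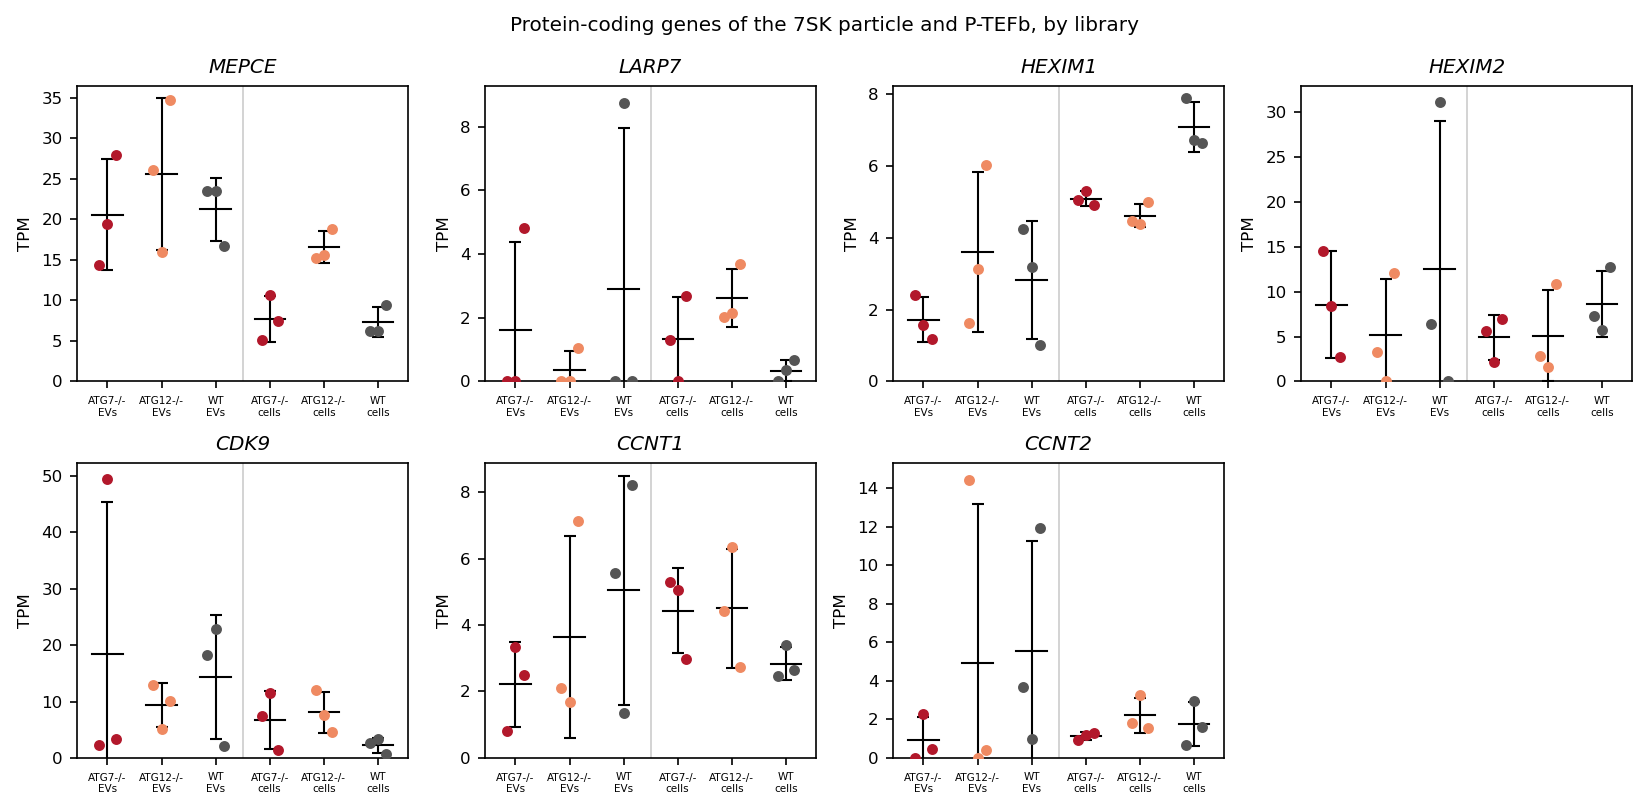
TPM (vertical axes, linear, from 0) of the 7 protein-coding genes in each library (points), with means (long bars) and SDs (whiskers, n = 3, not drawn below 0). Cell libraries of HEXIM1 form separate bands for wild type (6.63 to 7.88 TPM) and the knockouts (4.38 to 5.31 TPM), and most EV groups spread widely.

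CDK9 (chr9:127785679-127790787, plus strand), the kinase subunit of P-TEFb, had 2.30, 49.5 and 3.27 TPM in ATG7-/- EVs, 13.0, 5.16 and 10.1 TPM in ATG12-/- EVs, and 18.2, 22.9 and 2.04 TPM in wild-type EVs. The ATG7-/- mean rested on 1 library, and the EV groups overlapped. ATG7-/- cells had 7.44, 11.5 and 1.35 TPM, ATG12-/- cells 12.0, 7.67 and 4.64 TPM, and wild-type cells 2.62, 3.28 and 0.704 TPM. ATG12-/- cells lay above wild-type cells (log2 fold change 1.54, SE 0.67, limma adjusted p = 0.335). The mRNA that encodes the kinase was a small part of this: 61.7% of the CDK9 signal lay in a processed transcript of 510 nt with no coding sequence annotated and 29.2% in another of 458 nt.

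The cyclins were as low. CCNT1 (chr12:48688458-48716998, minus strand), the main cyclin of P-TEFb, had a lowest, median and highest value of 0.814, 2.51 and 8.21 TPM in EVs and 2.46, 3.40 and 6.34 TPM in cells. CCNT2 (chr2:134918235-134959342, plus strand), the alternative cyclin, had 0, 1.01 and 14.4 TPM in EVs and 0.691, 1.57 and 3.24 TPM in cells. Groups overlapped for both cyclins in each comparison with wild type. Most of the CCNT1 signal (75.8%) was in a transcript annotated for nonsense-mediated decay, and 57.1% of the CCNT2 signal was in a retained-intron transcript above 0 in 3 EV libraries.

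Over the 8 genes, few passed the test, with an adjusted p under 0.05, in any comparison. In ATG7-/- EVs against wild-type EVs, the comparison on which the genes were chosen, RN7SK was the 1 gene called, where 0.141% of 17076 genes were called. Since RN7SK was chosen by its fall there, this call is a description and no test. That call was lost without ATG7-/- EV replicate 1, 2 or 3 (limma adjusted p = 0.122, 0.0949 and 0.120) or wild-type EV replicate 2 or 3 (0.0835 and 0.117), without a filter (0.0885) and without the trend and with sample weights (0.614), while the log2 fold change lay between -1.12 and -0.79 in every alternative. RN7SK was also the 1 gene whose groups did not overlap, where 13.9% of all genes did not. In ATG12-/- EVs limma called 0 of 8, with 0.105% of all genes called, and only RN7SK had an unadjusted p under 0.05, against 7.94% of all genes, and groups that did not overlap, against 11.3%. In ATG7-/- cells limma called 0 of 8, against 0.200% of 22471 genes, with RN7SK the 1 gene at an unadjusted p under 0.05, against 14.4% of all genes, and RN7SK and HEXIM1 the 2 without overlap, against 19.9%. In ATG12-/- cells limma again called 0 of 8, against 0.134%, with MEPCE, LARP7 and HEXIM1 the 3 at an unadjusted p under 0.05, against 15.0% of all genes. There 4 genes did not overlap, MEPCE, LARP7 and CDK9 higher and HEXIM1 lower, against 23.6% of all genes. Nothing particular to the 8 genes is read from these counts.

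Between EVs and cells limma called 0 of 8 in ATG7-/-, where 11.4% of all 24647 genes were called, with MEPCE and HEXIM1 at an unadjusted p under 0.05, against 28.1% of all genes. It called 0 of 8 in ATG12-/-, against 11.2%, with RN7SK the 1 gene at an unadjusted p under 0.05, against 27.7% of all genes. In wild type it called 2 of 8, RN7SK higher and HEXIM1 lower, against 24.6% of all genes (991 higher and 5081 lower). These and MEPCE were the 3 at an unadjusted p under 0.05, against 38.6% of all genes. Over the 3 genotypes limma called 3 of 8, RN7SK and MEPCE higher and HEXIM1 lower, against 44.2% of all genes (1888 higher and 8994 lower). Each of these RN7SK calls uses EV libraries on which the genes were chosen. The median over the 8 genes was -0.18 in that last comparison, against -0.62 over all genes tested.

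**Figure D4:**
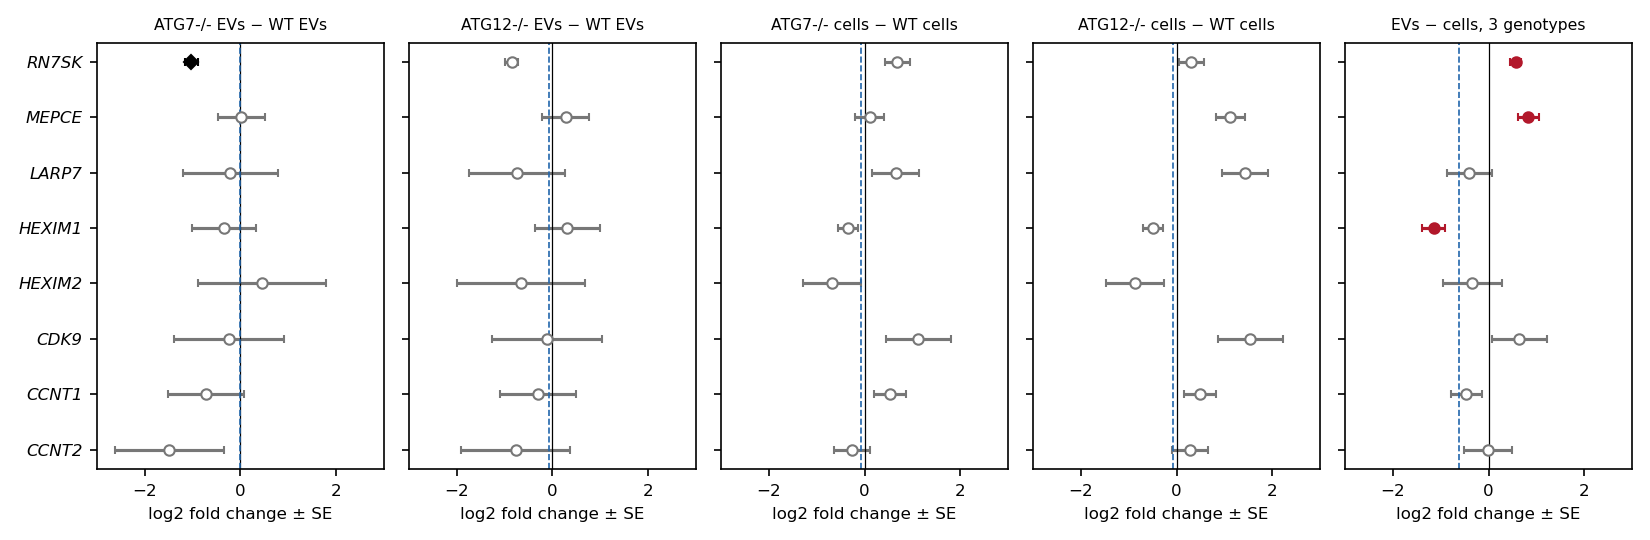
Log2 fold change with limma's SE (horizontal axes) of the 8 genes in 5 comparisons, the first group named minus the second. Filled circles passed an adjusted p of 0.05, open circles did not, the black diamond is the value that chose the genes, and dashed lines give the median of all genes tested; SEs in cells are smaller than in EVs for each protein-coding gene.

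Genes around the pathway were counted in the same fits. In the 4 comparisons of knockout with wild type, no gene was called in the lists of the super elongation complex, of pausing factors, of proteins that bind 7SK or release P-TEFb, of other transcription kinases or of the RNA polymerase III machinery that makes 7SK. At an unadjusted p under 0.05 these 5 lists held 3 of their 63 tested genes in either knockout's EVs and 6 of 57 in either knockout's cells. Over all genes the share was 7.38% in ATG7-/- EVs, 7.94% in ATG12-/- EVs, 14.4% in ATG7-/- cells and 15.0% in ATG12-/- cells. The share of all genes called was 0.141%, 0.105%, 0.200% and 0.134% in the same order. Among other RNAs made by polymerase III, 8 of 19 could be tested, and RPPH1, the RNA of RNase P, was the 1 called, lower in both knockout EVs. In EVs of either knockout 5 of these 8 RNAs were above 0 and 3 below. Their medians were 0.87 in ATG7-/- EVs (-0.00 over all genes) and 0.52 in ATG12-/- EVs (-0.08 over all genes). Without overlap, 3 lay above and 2 below wild type in ATG7-/- EVs, against 13.9% of all genes. In ATG12-/- EVs 2 lay above and 2 below, against 11.3%. RNY1 was above in both (1.24 and 1.25, limma adjusted p = 0.339 and 0.333) and RN7SL2 below in both (-0.21 and -0.77, adjusted p = 0.750 and 0.0730). RN7SL2 was called in ATG12-/- EVs on TPM as deposited and without transcripts under 200 nt. RPPH1 had 4757, 4318 and 3571 TPM in ATG7-/- EVs, 4026, 4868 and 4785 TPM in ATG12-/- EVs, and 10328, 13561 and 11619 TPM in wild-type EVs. Its knockout libraries lay below the wild-type ones, like those of RN7SK. The log2 fold changes were -1.39 (SE 0.14, limma adjusted p = 0.00729) and -1.30 (SE 0.14, adjusted p = 0.0141), and both comparisons use the same wild-type EVs. The call in ATG12-/- EVs was lost without ATG12-/- EV replicate 1 or 2 or wild-type EV replicate 3 (limma adjusted p = 0.0768, 0.0528 and 0.0653) and without a filter (0.0661), and without the trend and with sample weights neither was called (adjusted p = 0.458 in ATG7-/- EVs and 0.755 in ATG12-/- EVs). Of the 6 nuclear RNAs that could be tested in EVs, RPPH1 included, 4 were below 0 in ATG7-/- EVs and 3 in ATG12-/- EVs. Their medians were -0.44 (-0.00 over all genes) and -0.22 (-0.08 over all genes). Below wild type without overlap lay 2 in ATG7-/- EVs, RPPH1 among them, where 13.9% of all genes did not overlap. In ATG12-/- EVs only RPPH1 did, where 11.3% of all genes did not overlap. Limma called none of the 6 other than RPPH1. The summed TPM of the nuclear RNAs without RPPH1, carried by the most abundant, averaged 864 in ATG7-/- EVs, 822 in ATG12-/- EVs and 727 in wild-type EVs.

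Between EVs and cells over the 3 genotypes, factors on either side of P-TEFb were called in both directions. Of 7 pausing factors and polymerase II genes, 3 were higher in EVs and none lower. NELFB and NELFCD, subunits of the negative elongation factor, had log2 differences of 1.39 and 0.80, and SUPT4H1, a subunit of DSIF, of 1.11 (limma adjusted p = 0.00169, 0.0122 and 0.00743). NELFB was low, with means of 8.26 TPM in EVs and 2.05 TPM in cells. The calls of NELFCD and SUPT4H1 were lost with upper quartile scaling. Of 11 genes whose products bind 7SK or release P-TEFb from it, 3 were higher (HMGA1, TRIM28 and HNRNPA1) and 3 lower (PPP1CA, JMJD6 and SRSF2). HMGA1, a chromatin protein that binds 7SK, had 91.5 ± 30.4 TPM in EVs and 25.2 ± 6.68 TPM in cells (SD, n = 9 each; 1.52, limma adjusted p = 8.44e-06), and TRIM28, which holds the 7SK particle at promoters, had 214 ± 84.6 TPM in EVs and 58.7 ± 24.3 TPM in cells (1.62, adjusted p = 6.36e-04).

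Of 12 genes of the super elongation complex and its recruitment 1 was lower in EVs, AFF3 (-1.18, limma adjusted p = 0.0172). AFF3 was low, with means of 1.46 TPM in EVs and 3.90 TPM in cells. Of 8 other transcription kinase genes 1 was lower, CDK13 (-1.11, limma adjusted p = 0.00701). The polymerase III machinery had 3 of 25 higher and 7 lower, with a median of -0.13. MAF1, a repressor of polymerase III, was higher (1.42, limma adjusted p = 0.00337), and SSB, the La protein that binds new polymerase III transcripts, lower (-1.89, adjusted p = 4.41e-04). SSB had 27.2 ± 5.35 TPM in ATG7-/- EVs, 0.416 ± 0.721 TPM in ATG12-/- EVs and 2.92 ± 3.65 TPM in wild-type EVs (SD, n = 3 each), so its value over 3 genotypes joins unlike groups. Of the 8 other polymerase III RNAs tested, 4 were higher in EVs and none lower: RPPH1 (1.86), RN7SL1 and RN7SL2 of the signal recognition particle (1.35 and 1.43), and the Y RNA gene RNY1 (1.49). The RNY1 value also joins unlike groups, with 0.24 in wild type (not called), 1.61 in ATG7-/- and 2.61 in ATG12-/-. For all of these lists the share of genes called stands beside 44.2% of all 24647 genes, of which 1888 were called higher and 8994 lower.

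**Figure D5:**
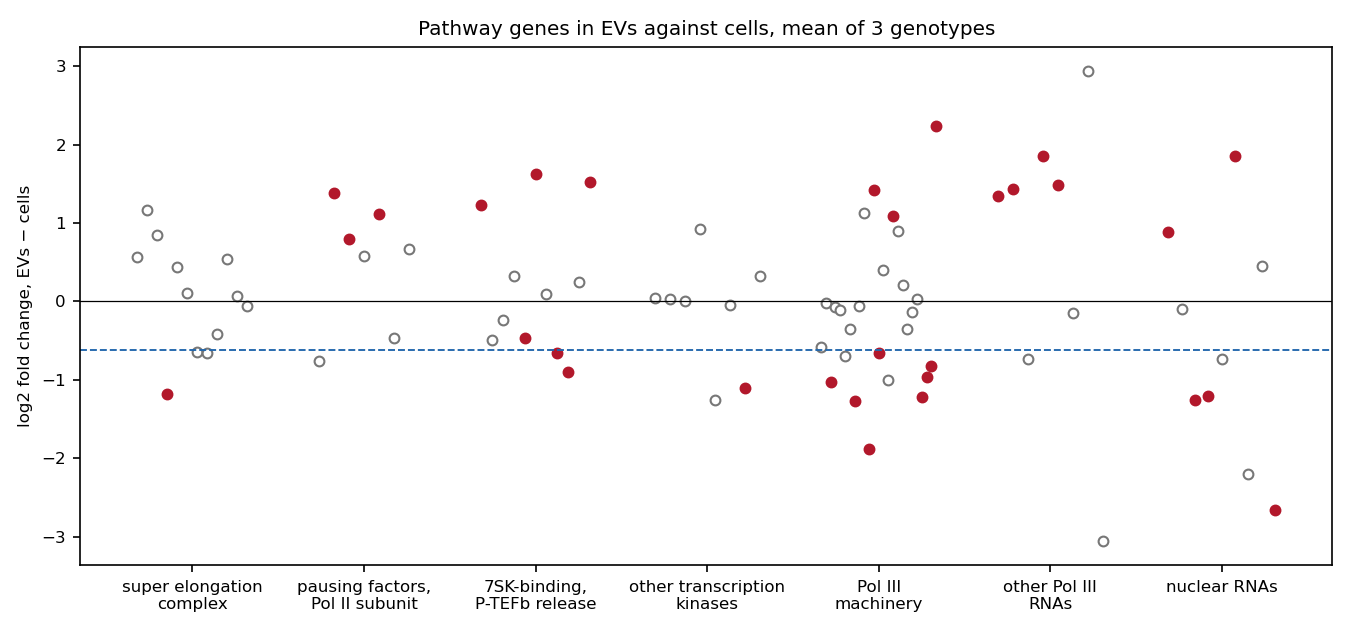
Log2 difference of EVs minus cells over the 3 genotypes (vertical axis) for the tested genes of 7 lists around 7SK and P-TEFb (horizontal axis). Filled points passed an adjusted p of 0.05, open points did not, and the dashed line is the median of all genes (-0.62); RPPH1 and RMRP are listed in both of the last 2.

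Across libraries, the RNAs most like RN7SK were sought among the 927 genes that averaged 100 TPM or more in EVs. By Pearson's r of log2(scaled TPM + 1) over the 9 EV libraries these were RPPH1 (0.986), the long noncoding AL355075.3 (0.951), RN7SKP80 (0.941), MDC1-AS1 (0.917) and ACTB (0.910). Over all 18 libraries they were MT-RNR2, the large mitochondrial ribosomal RNA (0.822), RPPH1 (0.805), AC092140.1 (0.782), DUT (0.750) and BAG6 (0.731). The libraries fall into the genotype and fraction groups, and the TPM of all genes share 1 total, so these values only describe the order.

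TPM keep no read number, so the depth of each library is unknown. An EV library held 13255 to 14716 genes at 1 TPM or more, and a cell library 18464 to 20509. In cells 7 of 10 marker genes of HEK293T had a mean of at least 1 TPM and 3 had at least 1 TPM in every cell library, and of 5 markers of other cell types 2 had a mean of at least 1 TPM, 1 had at least 1 TPM in every cell library and 2 were under 1 TPM throughout. The targeted genes were still listed: ATG7 had 11.2 to 15.6 TPM in ATG7-/- EVs and 13.3 to 19.4 TPM in wild-type EVs, 8.06 to 12.9 TPM in ATG7-/- cells and 8.14 to 13.1 TPM in wild-type cells. ATG12 had 0 to 0.858 TPM in ATG12-/- EVs and 0.844 to 22.6 TPM in wild-type EVs, 5.18 to 9.18 TPM in ATG12-/- cells and 7.61 to 13.5 TPM in wild-type cells. What was edited is not stated, so these levels do not check the genotypes.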

How the data were processed

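The authors deposited 1 table of TPM for 203027 transcripts in 18 libraries, each summing to 1000000. Per the submitters' processing notes, Salmon 0.14 and DESeq2 were used, with no role stated. Per the labels' protocols, libraries came from a stranded total-RNA kit, 22 PCR cycles and single reads of 50 bases. For build, annotation and strand setting nothing is stated (not given in the sources used here). Transcripts were matched by identifier to GENCODE 29 (86 unmatched, at most 0.0384% of a library) and summed per gene. Median-of-ratios factors scaled the libraries. The limma test (version 3.58.1, R 4.3.3, with trend) took log2(TPM + 1) of each gene that reached 1 TPM in 3 or more fitted libraries, over 9 EV, 9 cell or all 18 libraries. Tests are 2-sided, with Benjamini-Hochberg adjustment over all genes. TPM hold no counts, so the count tests that would come first were replaced by limma. This scale understates changes of low genes. Labels call replicates biological, without saying how they were grown. The fits were tested on simulated data with changed genes of a smaller and a larger size. The median fitted sizes were close to those simulated, but limma called none of the smaller changes, hardly any of the larger ones in EVs and a minority of them in cells. Members, lists and tests were chosen with earlier results of these data known. Named genes were the 8 members, the leading or called list genes, the highest RN7SK copies, opposite-strand genes and those most like RN7SK. The list genes given were picked from those with their values seen. Alternatives were other scalings, pseudocounts and filters, sample weights, summed pseudogenes, no transcripts under 200 nt, a replicate block and leaving out each library.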

Additional observations from a re-analysis of the deposited data

Results flagged for a closer look

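For 4 RNAs every library of 1 knockout moved one way against wild type in EVs and the other way in cells, while the other knockout overlapped wild type in EVs or in cells. The difference between EVs and cells in this respect was not tested. Only the 8 members, RN7SKP80, RN7SKP255, AC067930.4 and RPPH1 were searched, and the share of all genes with such opposite shifts was not counted. In EVs alone 13.9% (ATG7-/-) and 11.3% (ATG12-/-) of all genes did not overlap with wild type, and in cells alone 19.9% and 23.6%. RN7SK had a log2 fold change of -1.03 in ATG7-/- EVs and of 0.69 in ATG7-/- cells, and the first of these values chose the genes. Its antisense copy AC067930.4 had -0.10 in ATG7-/- EVs and 0.40 in ATG7-/- cells. Its pseudogene RN7SKP80 had -0.44 in ATG12-/- EVs and 2.64 in ATG12-/- cells. RPPH1, which is not a copy of 7SK, had -1.30 in ATG12-/- EVs and 1.41 in ATG12-/- cells. Of these 8 values, limma called that of RPPH1 in ATG12-/- EVs and that of RN7SK in ATG7-/- EVs, the comparison that chose it.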

How the results depend on the processing

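No called value changed sign. For RN7SK, the summed copies gave -0.79 in ATG7-/- EVs, -0.57 in ATG12-/- EVs, 0.99 in ATG12-/- cells and 0.55 for EVs minus cells in ATG7-/-. Upper quartile scaling gave -0.80 in ATG7-/- EVs, where the call was lost (limma adjusted p = 0.101), -0.19 for EVs minus cells in ATG12-/- and 0.17 over 3 genotypes. In ATG12-/- EVs RN7SK was called on TPM as deposited (-0.93) and without transcripts under 200 nt (-0.86).

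Counts of called genes moved more. The 24 of ATG7-/- EVs became 8 without a filter, 14 with a pseudocount of 10 and 9 with the replicate block, and 5 to 15 with each of its 6 libraries left out in turn. The 18 of ATG12-/- EVs became 5, 7 and 3 in the same settings, 4 without trend and with sample weights, 10 with upper quartile scaling, and 5 to 18 with a library left out (10 or fewer without ATG12-/- EV replicate 1 or 2 or wild-type EV replicate 1 or 3). In cells the 45 of ATG7-/- became 21 with a pseudocount of 10 and 13 with the block, and 5 to 51 with a library left out, lowest without wild-type cell replicate 1, and 29 or fewer also without wild-type cell replicate 2 or 3 or ATG7-/- cell replicate 3. The 30 of ATG12-/- became 16 and 12, and 13 to 30 with a library left out (13 without wild-type cell replicate 2 and 14 without replicate 3). For EVs minus cells, the 2807 of ATG7-/- became 1541 to 2100 with a library left out, lowest without ATG7-/- cell replicate 1, and the 2769 of ATG12-/- became 1311 to 2329, and at most 1738 without any of the 3 ATG12-/- cell libraries, and 5433 with upper quartile scaling. That scaling also moved the split of higher to lower calls from 17 and 7 to 28 and 5 in ATG7-/- EVs, from 19 and 26 to 10 and 26 in ATG7-/- cells, and from 559 and 2210 to 273 and 5160 between EVs and cells of ATG12-/-. Between EVs and cells, TPM as deposited moved it from 667 and 2140 to 825 and 1570 in ATG7-/- and from 991 and 5081 to 1575 and 3348 in wild type. The cause of these shifts was not tested, beyond the loss of libraries itself.

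Same-numbered libraries did not deviate together (correlations -0.03 to 0.03, none of 21 pairs over 0.1; in 14 of 42 checks, each of 1 library against another group, the same number correlated best), so the block is given here only. With it RPPH1 in ATG12-/- EVs was no longer called (limma adjusted p = 0.0537). Without depth no counting error can be given for values of a few TPM, such as those of LARP7, HEXIM1 and the cyclins.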
